A study of Mus musculus with 12 samples.

Results

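The miR-181 family was followed through 12 mouse small RNA libraries from 5 cell types. Its members were all rows of the miRNA table named as an arm of miR-181a, miR-181b, miR-181c or miR-181d, whatever the gene copy, which gave 10 of the 1042 miRNAs in the table. There were 4 rows for 5p arms (mmu-miR-181a-5p, mmu-miR-181b-5p, mmu-miR-181c-5p and mmu-miR-181d-5p, written below without the prefix for mouse) and 6 rows for 3p arms. Of the 10 rows, 9 had at least 10 reads in at least 2 libraries and entered the tests together with 723 other miRNAs. The row that did not was miR-181b-2-3p.

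The 5 cell types were mouse embryonic fibroblasts (MEFs, 3 libraries), embryonic stem cells (ESCs, line E14, 3 libraries), induced pluripotent stem cells (iPSCs, 2 libraries), ESCs derived by nuclear transfer (NT-ESCs, 2 libraries) and cells derived by transferring an iPSC nucleus (NT-iPSCs, 2 libraries). A lentivirus for the factors Oct4, Sox2, Klf4 and c-Myc, switched on by dox, turned MEFs of the cross C57B6/129SvJae F1 into the iPSCs. For the NT-ESCs MEFs were reprogrammed through an oocyte instead, and for the NT-iPSCs an oocyte without its own nucleus received that of an iPSC. All 3 reprogrammed types came from the same MEFs, whereas E14 is of the strain 129/ola. The 4 pluripotent types grew on a layer of irradiated MEFs with leukaemia inhibitory factor, so their RNA can hold some RNA of fibroblasts. The libraries of a type were RNA batches of 1 line, so cell type and line cannot be told apart and the spread between libraries covers those batches only. In the paper's sequencing summary the libraries of the 3 reprogrammed types had more total reads than those of MEFs and ESCs. Their shares of reads without a 3′ adaptor or without an insert were smaller. Whether they were prepared or sequenced apart is not given in the sources used here, so such a split and reprogramming cannot be told apart.

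The libraries held 4863365 to 8608689 miRNA reads. Levels are given as normalized reads, that is reads divided by the size factor of the library, with size factors of 0.762 to 0.819 in MEFs, 0.887 to 0.999 for ESCs and 1.14 to 1.44 for reprogrammed cells. Differences are between group means of the deposited log2-scale values, with the standard error (SE) and the adjusted p of limma, a linear model fitted across all 732 tested miRNAs with Benjamini-Hochberg adjustment at 0.05. The 9 pluripotent miRNAs of the miR-290 and miR-302 clusters summed to 8.55 to 102 normalized reads in MEFs and to 403926 to 922557 in the other types, with miR-302a-3p and miR-302d-3p at 0 in MEFs. The 8 fibroblast miRNAs (among them miR-199a, miR-214 and miR-143) were all higher in MEFs than in ESCs, but none was at 0 in any pluripotent type. Their sum was 652888 to 1058335 in MEFs, 219993 to 251690 in ESCs, 54546 to 56903 in iPSCs, 184227 to 196516 in NT-ESCs and 219607 to 254035 in NT-iPSCs. Fewer fibroblasts and less of these RNAs per cell cannot be told apart in bulk RNA.

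A miRNA is cut from a hairpin whose 2 arms (5p and 3p) can each be loaded into an Argonaute protein, and the bases near its 5′ end, the seed, do most of the pairing with target mRNAs. The miR-181 family is best known from blood, where miR-181a tunes T cell receptor signalling and is expressed in developing lymphocytes, and it has been studied in muscle and vascular cells as well. In mammals its members come from 3 clusters, each of which carries a pair of hairpins.

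The 5p arms are the abundant strands and share a seed, so they are shown first, with bases 2 to 8 in capitals (sequences from the RefSeq miRNA table, all 10 rows matched by name).
miR-181a-5p: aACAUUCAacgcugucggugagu
miR-181b-5p: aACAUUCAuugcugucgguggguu
miR-181c-5p: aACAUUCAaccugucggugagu
miR-181d-5p: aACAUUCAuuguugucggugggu

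The seed ACAUUCA was found in these 4 of 1679 mature entries of that table and in no other. Outside the seed the 4 fall into pairs that cross the clusters. miR-181a-5p and miR-181c-5p differ by 1 edit, a base that miR-181c-5p lacks, and miR-181b-5p and miR-181d-5p differ by C12U (the base of miR-181b-5p first, positions counted from the 5′ end) and by 1 base of length. Reads of so close a pair could be assigned to the wrong member through a sequencing error or a trimmed end, and how the authors assigned them is not given in the sources used here.

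The 3p arms differ more and tell the gene copies apart, so they are shown with their seeds in the same way.
miR-181a-1-3p: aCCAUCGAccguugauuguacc
miR-181a-2-3p: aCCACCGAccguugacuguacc
miR-181b-1-3p: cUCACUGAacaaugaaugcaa
miR-181b-2-3p: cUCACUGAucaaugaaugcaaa
miR-181c-3p: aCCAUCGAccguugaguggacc
miR-181d-3p: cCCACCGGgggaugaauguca

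The seed CCAUCGA is shared by miR-181a-1-3p and miR-181c-3p, and UCACUGA by both miR-181b-3p rows. The remaining pair of 3p arms each had a seed of its own. None of these seeds was found outside the family in the RefSeq table.

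By GENCODE M21 (GRCm38, matched by gene name), Mir181a-1 lies at chr1:137966455-137966541 and Mir181b-1 at chr1:137966639-137966718, both on the plus strand, 97 bases apart, in an intron of the noncoding gene Gm4258 and wholly (Mir181b-1) or partly (Mir181a-1) in an exon of the lincRNA A430106G13Rik. Mir181a-2 at chr2:38852735-38852810 and Mir181b-2 at chr2:38853830-38853918 lie on the plus strand with 1019 bases between them, in an intron of Nr6a1 but on the opposite strand. Nr6a1 encodes germ cell nuclear factor, an orphan receptor that represses Oct4 as stem cells differentiate. Mir181c at chr8:84178873-84178961 and Mir181d at chr8:84178716-84178787 are on the minus strand with 85 bases between them, in an intron of Nanos3, a germ cell gene, on the same strand. The submitters' processing notes name the build mm8, so these positions serve only to show which hairpins neighbour each other. The 5p arms of miR-181a and of miR-181b can each come from the chromosome 1 or the chromosome 2 copy, and reads of those rows cannot be split between copies.

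The most abundant member differed between MEFs and the pluripotent types. In MEFs miR-181a-5p and miR-181b-5p together made up most of the 5p reads of the family, and in every pluripotent library miR-181d-5p did. miR-181c-5p and miR-181d-5p together held 15.2% to 25.8% of the 5p reads in the MEF libraries and 82.4% to 83.4% in the ESC libraries. That share was 84.8% to 85.5% in iPSCs, 85.3% to 86.1% in NT-ESCs and 79.3% to 79.6% in NT-iPSCs. These shares are ratios within a library and do not depend on the scaling between libraries. No test was made on them, because they sum over members.

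The total of the 4 arms followed another order. In MEFs it was 0.314% to 0.382% of all miRNA reads. ESCs had 0.287% to 0.297%, and the 6 reprogrammed libraries 1.17% to 1.64%. In normalized reads the 4 arms summed to 35235 to 36708 in MEFs, 15617 to 17179 among ESCs and 46316 to 81905 among reprogrammed libraries, so MEFs and ESCs were close as a share of reads only. Reprogrammed libraries also differed from ESCs in makeup, with miR-181c-5p at 3.92% to 5.97% of the 5p reads against 13.5% to 14.1%, and miR-181d-5p at 75.3% to 80.6% against 68.3% to 69.9%. The 6 3p arms took 4.09% to 4.76% of the family's reads in MEFs and 6.82% to 7.51% in ESCs, but 1.13% to 1.72% among reprogrammed libraries.

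**Figure D1:**
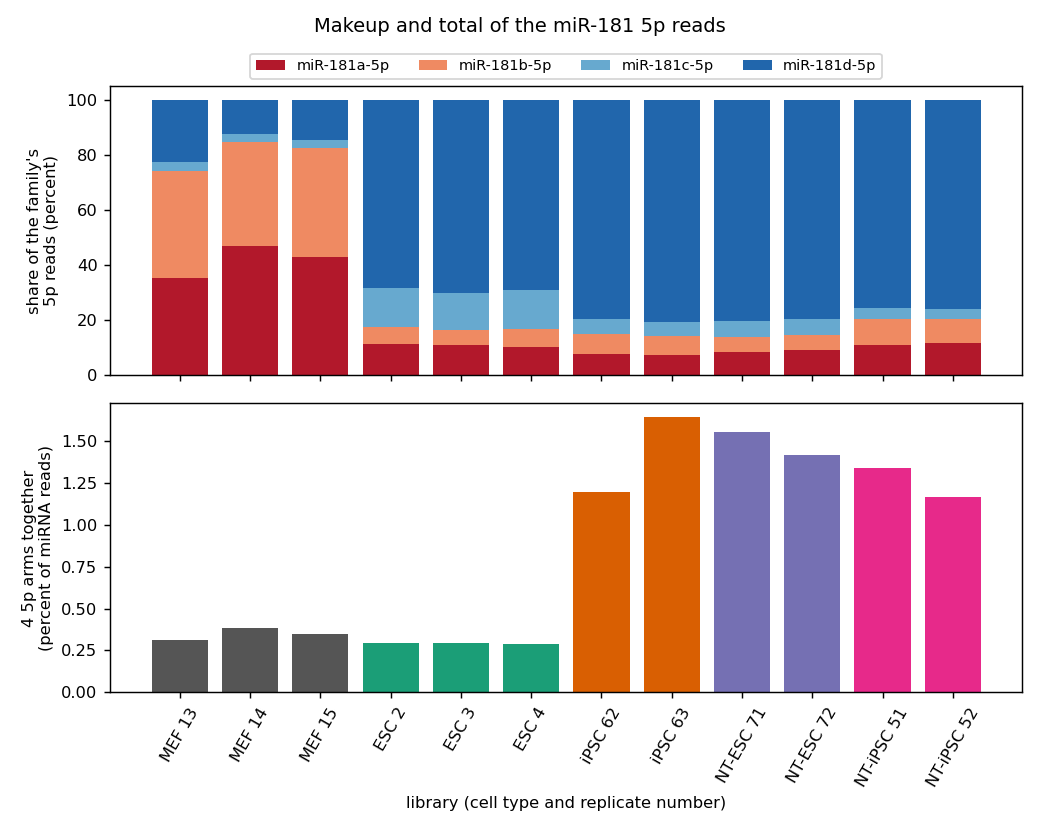
Upper bars give the percent of the family's 5p reads that each of the 4 arms took in each library, and lower bars the 4 arms together as a percent of all miRNA reads. The 3 MEF libraries were mostly miR-181a-5p and miR-181b-5p, the 9 pluripotent libraries mostly miR-181d-5p, and the totals of the 6 reprogrammed libraries (1.17% to 1.64%) were above those of the MEF and ESC libraries.

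The comparison of MEFs with ESCs asks which miRNAs differ between a somatic and a pluripotent cell. All 9 tested members passed, 5 higher and 4 lower in MEFs. Over all tested miRNAs 79.0% passed in this comparison, with 39.1% higher and 39.9% lower, so being called was itself common. The split followed the clusters. Every arm of miR-181a and miR-181b that was tested was higher in MEFs, and every arm of miR-181c and miR-181d was lower. The libraries of all 10 rows, miR-181b-2-3p included, did not overlap between MEFs and ESCs, as was so for 79.9% of all tested miRNAs. The members had a median difference of 3.07 (log2 scale), against 0.00 over all tested miRNAs.

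miR-181a-5p had 12495, 17262 and 15194 normalized reads in MEF replicates 13, 14 and 15, and 1815, 1912 and 1599 in ESC replicates 2, 3 and 4. MEFs were thus 8.44 times as high, with no overlap (difference 3.07, SE 0.17, limma adjusted p 2.69e-08). miR-181b-5p had 13798, 13883 and 13963 in MEFs and 1021, 936 and 1047 in ESCs. It was 13.9 times as high in MEFs (difference 3.79, SE 0.16, limma adjusted p 2.78e-09), and its MEF libraries were closer to each other than those of miR-181a-5p.

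The 3p arms of both miR-181a copies went the same way. miR-181a-1-3p, from chromosome 1, had 486, 527 and 551 normalized reads in MEFs and 31.6, 46.0 and 40.1 in ESCs (difference 3.72, SE 0.27, limma adjusted p 2.07e-07). miR-181a-2-3p, from chromosome 2, had 715, 814 and 863 in MEFs and 94.7, 100.1 and 79.1 in ESCs (difference 3.12, SE 0.17, limma adjusted p 1.76e-08). Both copies were therefore represented in MEFs, and miR-181a-2-3p was the more frequent of them in every MEF and ESC library.

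The 3p arms of miR-181b were rare. miR-181b-1-3p had 17, 19 and 24 reads in MEFs and 2, 0 and 2 in ESCs, where 0 reads allow up to 3 (0.52 CPM). Its summed rate was 17.7 times as high in MEFs (95% exact interval of the counting error 6.58 to 67.2, limma difference 4.18, SE 0.71, adjusted p 0.000248). Without ESC replicate 3, the library with 0 reads, the limma difference was 3.17. miR-181b-2-3p, which was not tested, had 13, 6 and 5 reads in MEFs and 0, 1 and 1 in ESCs. The rate of miR-181b-2-3p was 14.2 times as high in MEFs, with a counting interval of 3.52 to 124.

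The Nanos3 cluster was lower in MEFs. miR-181c-5p had 1118, 1050 and 1033 normalized reads in MEFs and 2280, 2318 and 2180 in ESCs (difference -1.08, SE 0.15, limma adjusted p 4.91e-05). miR-181c-3p had 265, 293 and 310 in MEFs and 1062, 1101 and 1133 in ESCs (difference -1.92, SE 0.14, limma adjusted p 1.55e-07). Neither arm overlapped between the cell types, and the 3p arm was 3.80 times as high in ESCs.

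miR-181d-5p had 8008, 4513 and 5046 normalized reads in MEFs and 11019, 12013 and 10791 in ESCs (difference -0.99, SE 0.22, limma adjusted p 0.0018). MEF replicate 13 was the highest of the MEF libraries and still under all ESC libraries. miR-181d-3p had 3, 0 and 2 reads in MEFs and 10, 9 and 11 in ESCs (limma difference -2.72, SE 0.76, adjusted p 0.0069), a rate 5.07 times as high in ESCs with a counting interval of 1.95 to 16.7. The limma difference was -1.57 without MEF replicate 14, the library with 0 reads, and -3.43 without MEF replicate 13.

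Scaling moved this comparison as a whole. The median difference of all tested miRNAs moved by 0.55 with upper quartile scaling, by -0.41 with a TMM-type scaling and by -0.80 with total miRNA reads as library size. No member changed direction in it. With upper quartile scaling miR-181d-5p kept a difference of -0.35 and no longer passed (limma adjusted p 0.162).

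**Figure D2:**
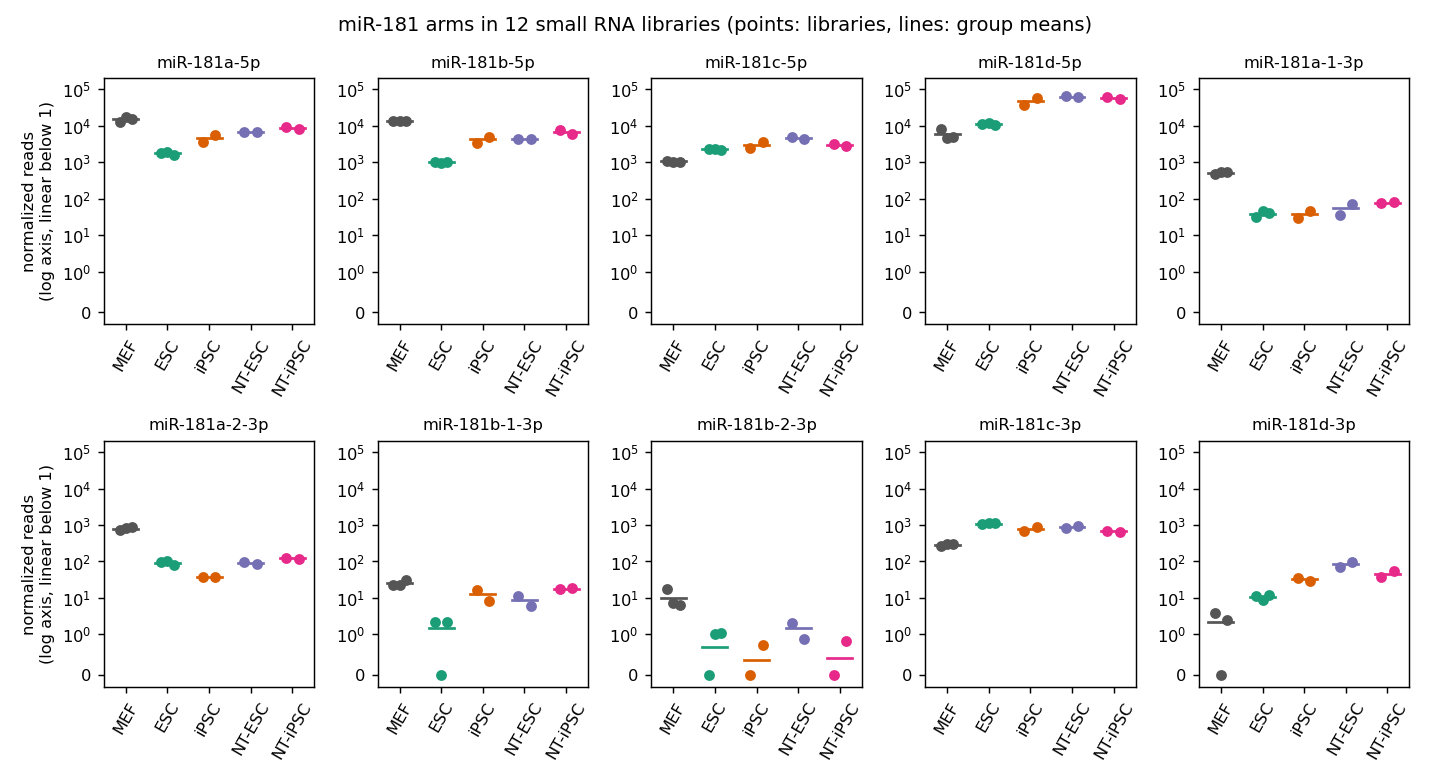
Each panel gives normalized reads of 1 of the 10 rows in the 12 libraries by cell type (points are libraries, lines are group means, and the axis is logarithmic above 1 and linear below). miR-181a and miR-181b rows were highest in MEFs, miR-181c and miR-181d rows were lowest in MEFs, and miR-181d-5p was the highest row in every pluripotent library.

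The comparison of the 6 reprogrammed libraries with ESCs asks how far reprogrammed cells differ from a stem cell line. A difference in preparation or sequencing of the libraries cannot be told apart from cell type in it. It shares the ESC libraries with the comparison above, so the pair is not independent. Of the 9 tested members 6 were higher in reprogrammed cells, 1 was lower and 2 did not pass. Over all tested miRNAs 82.0% passed, 44.0% higher and 38.0% lower. The median difference of the members was 1.87, and of all tested miRNAs 0.24. Other scalings moved the latter by 0.20 (upper quartile), -0.14 (TMM-type) and 0.12 (total miRNA reads).

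All 4 5p arms were higher in the reprogrammed cells. miR-181d-5p had 36825 and 58983 normalized reads in iPSC replicates 62 and 63, 65041 and 61481 in NT-ESC replicates 71 and 72, and 61703 and 53124 in NT-iPSC replicates 51 and 52. All 6 were above the ESC libraries, and their mean was 4.98 times that of ESCs (difference 2.29, SE 0.19, limma adjusted p 4.89e-07). miR-181d-3p had 49 and 39 reads in iPSCs, 101 and 114 in NT-ESCs and 46 and 66 in NT-iPSCs (limma difference 2.15, SE 0.66, adjusted p 0.0104).

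miR-181a-5p had 3669 and 5508 normalized reads in iPSCs, 6873 and 6997 in NT-ESCs and 9112 and 8370 in NT-iPSCs. Its mean was 3.80 times that of ESCs (difference 1.87, SE 0.15, limma adjusted p 2.88e-07). miR-181b-5p had 3375 and 5085 in iPSCs, 4457 and 4338 in NT-ESCs and 7814 and 5908 in NT-iPSCs, a mean 5.16 times that of ESCs (difference 2.32, SE 0.14, limma adjusted p 2.59e-08). Both rows lay between ESCs and MEFs in all 6 libraries.

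miR-181b-5p reads were 7.79% to 9.71% of miR-181d-5p reads in ESCs, 8.62% to 9.17% in iPSCs, 6.85% to 7.06% in NT-ESCs and 11.1% to 12.7% in NT-iPSCs, against 172% to 308% in MEFs. The part of misassigned reads in the rise of miR-181b-5p was not tested. The 3p arm of the chromosome 1 copy rested on few reads. miR-181b-1-3p had 23 and 11 reads in iPSCs, 16 and 7 in NT-ESCs and 21 and 22 in NT-iPSCs, a rate 9.07 times that of ESCs with a counting interval of 3.43 to 33.9 (limma difference 3.16, SE 0.62, adjusted p 0.000577). The limma difference was 2.15 without ESC replicate 3.

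miR-181c-5p rose least of the 5p arms. It had 2446 and 3598 normalized reads in iPSCs, 4851 and 4424 in NT-ESCs and 3276 and 2752 in NT-iPSCs, all above the ESC libraries (difference 0.61, SE 0.13, limma adjusted p 0.00108). Its 3p arm was the 1 member that was lower. miR-181c-3p had 691 and 868 in iPSCs, 844 and 942 in NT-ESCs and 675 and 656 in NT-iPSCs, all below the ESC libraries (difference -0.51, SE 0.12, limma adjusted p 0.00184).

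The 3p arms of miR-181a did not pass. miR-181a-1-3p had 30.1 and 46.1 normalized reads in iPSCs, 36.7 and 71.7 in NT-ESCs and 78.5 and 79.5 in NT-iPSCs (difference 0.45, SE 0.24, limma adjusted p 0.0968). miR-181a-2-3p had 38.2 and 36.6 in iPSCs, 97.7 and 86.6 in NT-ESCs and 127 and 119 in NT-iPSCs (difference -0.27, SE 0.14, limma adjusted p 0.102). Both rows overlapped with ESCs, unlike miR-181a-5p. miR-181a-1-3p passed with upper quartile scaling (0.66), with total miRNA reads (0.57) and without NT-ESC replicate 71 (0.61), and miR-181a-2-3p passed with the TMM-type scaling (-0.42). miR-181b-2-3p had 0 to 3 reads in each reprogrammed library.

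Against MEFs, the cells they were made from, the reprogrammed cells had 4 members higher, 4 lower and 1 that did not pass, where 88.9% of all tested miRNAs passed, 48.5% higher and 40.4% lower. The Nanos3 cluster was higher on both arms, with differences of 1.70 (SE 0.13) for miR-181c-5p, 3.28 (SE 0.19) for miR-181d-5p, 1.42 (SE 0.12) for miR-181c-3p and 4.87 (SE 0.66) for miR-181d-3p, the last of which was 3.72 without MEF replicate 14 and 5.58 without MEF replicate 13. miR-181d-5p was 9.60 times as high in reprogrammed cells as in MEFs. miR-181a-1-3p differed by -3.27 (SE 0.24) and miR-181a-2-3p by -3.39 (SE 0.14). The libraries of all 10 rows did not overlap between reprogrammed cells and MEFs (80.6% of all tested miRNAs).

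The 5p arms of miR-181a and miR-181b were lower in reprogrammed cells than in MEFs by less. Their differences were -1.20 (SE 0.15, limma adjusted p 1.19e-05) and -1.48 (SE 0.14, limma adjusted p 1.06e-06). With total miRNA reads as library size, which moved the median of all tested miRNAs by 0.98 in this comparison, miR-181a-5p differed by -0.19 and did not pass (limma adjusted p 0.261). miR-181b-1-3p differed by -1.02 (SE 0.62, limma adjusted p 0.139). It passed with upper quartile scaling (-1.43, limma adjusted p 0.0396), log2 of normalized reads plus 1 (limma adjusted p 0.0316), voom (limma adjusted p 0.0128) and only the compared types in the fit (limma adjusted p 0.0123).

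**Figure D3:**
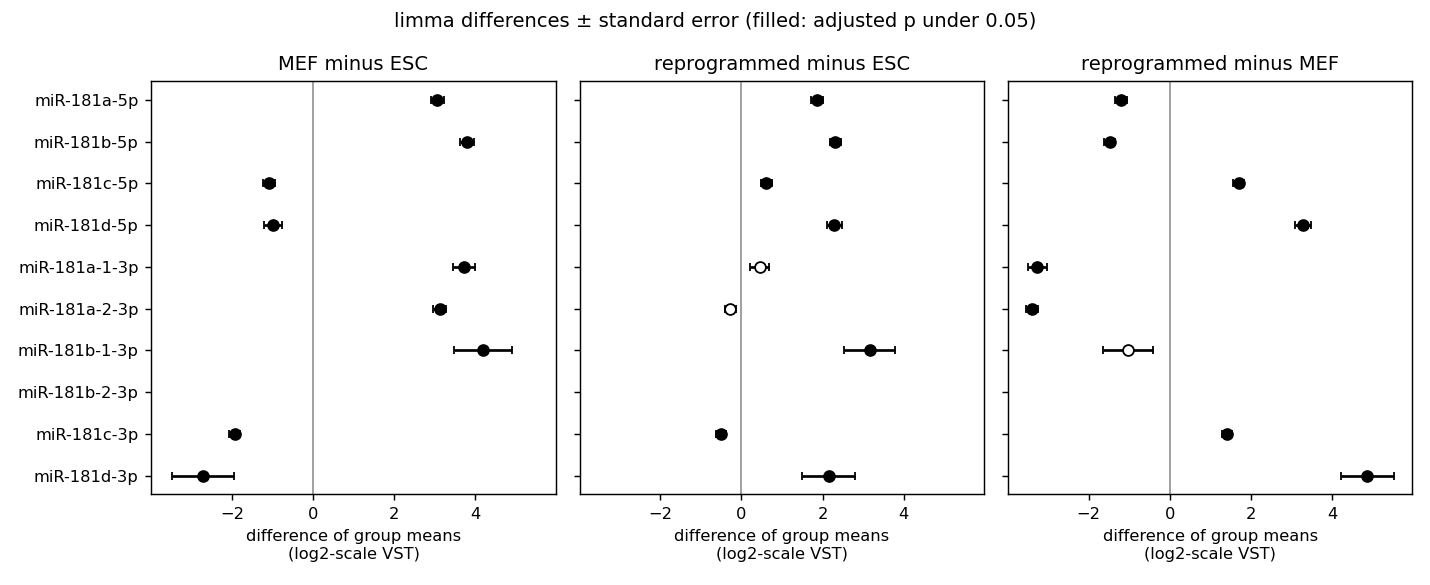
Points are limma differences of group means on the log2 scale with SE bars for the 9 tested rows in 3 comparisons, filled where the adjusted p was under 0.05. Between MEFs and ESCs the miR-181a and miR-181b rows were positive and the miR-181c and miR-181d rows negative, and between reprogrammed cells and ESCs the 4 5p arms were positive while the miR-181a 3p arms were near 0.

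The arms were then set against each other within a library, which needs no scaling between libraries. It does not remove a difference in preparation or sequencing between the reprogrammed and the other libraries, which cannot be told apart from cell type. The ratio of miR-181a-5p to both miR-181a 3p arms was 10.4 to 12.9 in MEFs, 13 to 14.3 in ESCs, 53.2 to 66.0 in iPSCs, 44.0 to 50.9 in NT-ESCs and 42.0 to 44.2 in NT-iPSCs. ESCs and reprogrammed cells did not overlap (difference of mean log2 ratios, ESC minus reprogrammed, -1.87, exact two-sided permutation p 0.0119, adjusted 0.0476). MEFs were also below all pluripotent libraries (difference -1.51, exact permutation p 0.00909, adjusted 0.0476), although the highest MEF ratio and the lowest ESC ratio were close and the call was lost with 5 reads added to each side (-1.47, exact permutation, adjusted p 0.0582). The p of 0.0119 is the smallest that 3 against 6 libraries allow, and the adjustment was over all 16 ratio tests. With any 1 of the compared libraries left out no ratio of the family passed, in a design where the smallest p is then larger.

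The ratio of miR-181c-5p to miR-181c-3p was 1.92 to 2.15 in ESCs, 3.54 to 5.75 in reprogrammed cells and 3.32 to 4.20 in MEFs. ESCs were below reprogrammed cells (difference -1.12, exact permutation p 0.0119, adjusted 0.0476). For miR-181b and miR-181d the 5p to 3p ratios overlapped between ESCs and reprogrammed cells (exact permutation p 0.702 and 0.655), with few 3p reads. Such shifts were frequent, since the 5p to 3p ratio of 76.0% of 263 hairpins with both arms did not overlap between ESCs and reprogrammed cells, and that of 17.5% between MEFs and pluripotent cells.

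Within the Nanos3 cluster miR-181c-5p was 0.193 to 0.207 of miR-181d-5p in ESCs, 0.140 to 0.233 in MEFs and 0.0518 to 0.0746 in reprogrammed cells. ESCs were above reprogrammed cells (difference 1.68, exact permutation p 0.0119, adjusted 0.0476), so reads of the 5p arms of these neighbours did not differ to the same extent. How far this holds for the hairpins themselves was not tested. The ratio of miR-181a-5p to miR-181b-5p was 1.53 to 2.04 in ESCs and 1.08 to 1.61 across the reprogrammed libraries, which overlapped (exact permutation p 0.0476, adjusted 0.109). The ratio of miR-181a-1-3p to miR-181a-2-3p was 0.341 to 0.513 in ESCs, 0.639 to 0.680 in MEFs and 0.380 to 1.25 in reprogrammed cells (ESCs against reprogrammed, exact permutation p 0.107, adjusted 0.189). The ratio of the miR-181b 3p copies rested on 0 to 3 reads of miR-181b-2-3p in each pluripotent library (ESCs against reprogrammed, exact permutation p 0.0238, adjusted 0.0762), and passed with 5 reads added (-1.66, exact permutation, adjusted p 0.0476).

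**Figure D4:**
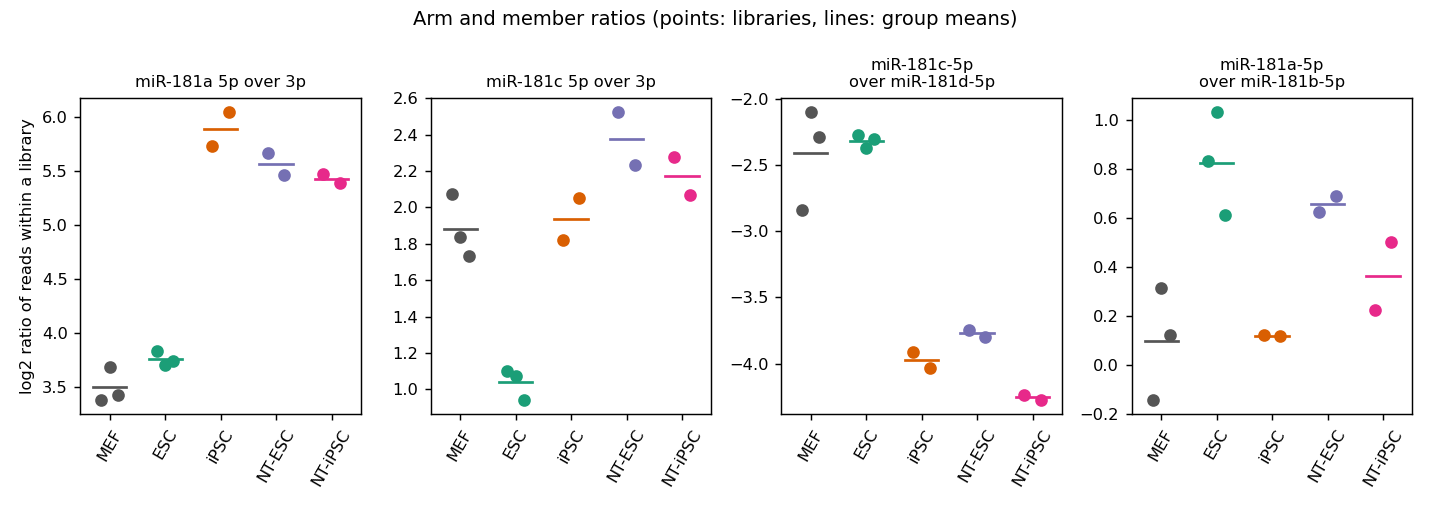
Points are log2 ratios of reads within each of the 12 libraries by cell type, and lines are group means, for 2 arm ratios and 2 ratios between members. The miR-181a 5p over 3p ratio of reprogrammed libraries (42.0 to 66.0 before the logarithm) was above that of all MEF and ESC libraries, and their miR-181c-5p over miR-181d-5p ratio was below.

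Each reprogrammed type was also set against ESCs by itself, with the same ESC libraries in each comparison. In iPSCs 4 members were higher and 2 lower, where 75.8% of all tested miRNAs passed, 39.8% higher and 36.1% lower. In NT-ESCs 6 were higher and none lower, with the same shares of all tested miRNAs (75.8%, 39.8% and 36.1%). In NT-iPSCs 7 were higher and 1 lower, where 77.6% passed, 41.1% higher and 36.5% lower. The difference of miR-181a-5p from ESCs was 1.34 in iPSCs. It was 1.97 for NT-ESCs and 2.30 for NT-iPSCs (SE 0.19 each). The 3 differences of miR-181d-5p, in the same order, were 2.05, 2.49 and 2.35 (SE 0.25 each). miR-181a-2-3p was lower than in ESCs in iPSCs (difference -1.27, SE 0.19, limma adjusted p 6.99e-05) and differed by 0.02 in NT-ESCs and by 0.43 in NT-iPSCs, neither of which passed. The NT-iPSC difference passed with upper quartile scaling (0.67, limma adjusted p 0.0082), with the 100-read filter (limma adjusted p 0.0393) and without ESC replicate 3 (0.50, limma adjusted p 0.0453).

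Some of these calls hung on 1 library or on the scaling. miR-181c-3p in iPSCs (-0.50) no longer passed without iPSC replicate 62 (-0.34) or with total miRNA reads as library size (-0.085, limma adjusted p 0.634). With that scaling miR-181c-5p (0.81) and miR-181d-3p (1.95) passed in iPSCs as well, which gave 6 members higher and 1 lower. The first also passed with upper quartile scaling (limma adjusted p 0.00917) and without iPSC replicate 62 (limma adjusted p 0.00381), and the second with log2 of normalized reads plus 1 (limma adjusted p 0.0221), voom (limma adjusted p 0.00573) and only the compared types in the fit (limma adjusted p 0.0049). In NT-ESCs miR-181b-1-3p (2.66) did not pass without replicate 71 (2.26) or with only the compared types in the fit (limma adjusted p 0.0517), nor miR-181d-3p (2.89) without replicate 72 (2.64). In NT-iPSCs miR-181c-5p (0.41) and miR-181d-3p (2.02) did not pass without any 1 of the ESC replicates 2, 3 and 4 or without NT-iPSC replicate 51, nor miR-181d-3p without NT-iPSC replicate 52. Without ESC replicate 3 the difference of miR-181b-1-3p from ESCs fell to 2.12 for iPSCs (from 3.13), 1.64 for NT-ESCs and 2.68 for NT-iPSCs (from 3.70), and passed in each. With TMM-type scaling (0.23), total miRNA reads (0.29) or no read filter (limma adjusted p 0.0505) miR-181c-5p was lost in NT-iPSCs too, and miR-181d-3p with TMM-type scaling (limma adjusted p 0.0518) or no read filter (limma adjusted p 0.055).

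The reprogrammed types were compared directly to ask whether the way of reprogramming goes with a difference. Between NT-ESCs and iPSCs 2 members passed, both higher in NT-ESCs, where 25.7% of all tested miRNAs passed, 12.6% higher. miR-181a-2-3p differed by 1.28 (SE 0.20, limma adjusted p 0.00117), and its lowest NT-ESC library, at 86.6 normalized reads, was above both iPSC libraries (68.9% of all tested miRNAs did not overlap). miR-181c-5p differed by 0.64 (SE 0.19, limma adjusted p 0.0263) and no longer passed without iPSC replicate 62 (0.36), NT-ESC replicate 71 (0.58) or NT-ESC replicate 72 (0.71), nor with total miRNA reads as library size (0.28) or only the compared types in the fit (limma adjusted p 0.12). miR-181a-5p differed by 0.63 (SE 0.21, limma adjusted p 0.0501), at the edge of the threshold. It passed with upper quartile (limma adjusted p 0.0308) and TMM-type scaling (limma adjusted p 0.0437), log2 of normalized reads plus 1 (limma adjusted p 0.0438), voom (limma adjusted p 0.0289) and the 100-read filter (limma adjusted p 0.0415), and without iPSC replicate 63 (0.92, limma adjusted p 0.0177).

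Between NT-iPSCs and iPSCs 4 members passed, all higher in NT-iPSCs and all of miR-181a or miR-181b, where 26.5% of all tested miRNAs passed, 13.4% higher. The differences were 0.96 (SE 0.21) for miR-181a-5p, 0.71 (SE 0.20) for miR-181b-5p, 1.07 (SE 0.33) for miR-181a-1-3p and 1.70 (SE 0.20) for miR-181a-2-3p. None of these 4 rows overlapped between the types, as was so for 63.1% of all tested miRNAs. Only miR-181a-2-3p passed without iPSC replicate 62, where miR-181a-5p differed by 0.66, miR-181b-5p by 0.42 and miR-181a-1-3p by 0.77. Without NT-iPSC replicate 51 miR-181b-5p (0.51) and miR-181a-1-3p (1.08) did not pass, and without NT-iPSC replicate 52 miR-181a-1-3p (1.06) did not. That row also missed the threshold with TMM-type scaling (limma adjusted p 0.0513). With only the compared types in the fit miR-181a-5p, miR-181b-5p and miR-181a-1-3p did not pass (limma adjusted p 0.0859, 0.179 and 0.108). With total miRNA reads as library size, which moved the median of all tested miRNAs by -0.51, only miR-181a-2-3p passed as higher, and miR-181c-5p (-0.53) and miR-181c-3p (-0.76) passed as lower.

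Between NT-iPSCs and NT-ESCs 1 member passed, miR-181c-5p, lower in NT-iPSCs by a difference of -0.63 (SE 0.19, limma adjusted p 0.0488), where 12.8% of all tested miRNAs passed, 5.60% higher and 7.24% lower. It did not pass without any 1 of NT-ESC replicate 71 (-0.56), NT-ESC replicate 72 (-0.69), NT-iPSC replicate 51 (-0.75) or NT-iPSC replicate 52 (-0.50). Its call was also lost with TMM-type scaling (limma adjusted p 0.0624), no read filter (limma adjusted p 0.0592) and only the compared types in the fit (limma adjusted p 0.0618). miR-181b-5p (0.63) passed as higher with voom (limma adjusted p 0.0332) and the 100-read filter (limma adjusted p 0.0483). With total miRNA reads as library size miR-181c-3p passed as lower (-0.60, limma adjusted p 0.0442).

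By mean level, miR-181a-5p was ordered ESC, iPSC, NT-ESC, NT-iPSC and MEF from the lowest. The neighbours NT-ESC and NT-iPSC did not pass the test, and iPSC and NT-ESC passed or not by the setting, as given above. miR-181b-5p had the same order, and its iPSC and NT-ESC libraries overlapped. miR-181c-5p was ordered MEF, ESC, NT-iPSC, iPSC and NT-ESC, with NT-iPSC and iPSC at 3014 and 3022 normalized reads on average. miR-181d-5p was ordered MEF, ESC, iPSC, NT-iPSC and NT-ESC, and none of the 3 reprogrammed types passed against another.

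The fibroblast miRNAs were compared between the reprogrammed types as well. All 8 were higher in NT-ESCs than in iPSCs and all 8 were higher in NT-iPSCs than in iPSCs, where 12.6% and 13.4% of all tested miRNAs were higher, with median differences of 1.69 and 1.97. In the first of these comparisons miR-181a-2-3p and miR-181c-5p passed as higher. The other tested rows of miR-181a and miR-181b did not pass. miR-181a-5p differed by 0.63 (limma adjusted p 0.0501) and miR-181a-1-3p by 0.45 (limma adjusted p 0.355). miR-181b-5p differed by 0.09 (limma adjusted p 0.789) and miR-181b-1-3p by -0.47 (limma adjusted p 0.741). In the second miR-181a-5p, miR-181b-5p and both miR-181a 3p arms passed as higher. The part of the fibroblast miRNAs in the miR-181 differences between reprogrammed types was not tested. In the ESC libraries their sum was 219993 to 251690 normalized reads, close to that of the NT-iPSC libraries, and miR-181a-5p was 1599 to 1912 in ESCs and 8370 to 9112 in NT-iPSCs. The single markers differed between these types, since 4 of the 8 were higher and 4 lower in NT-iPSCs than in ESCs. Over all tested miRNAs 41.1% were higher and 36.5% lower in that comparison.

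**Figure D5:**
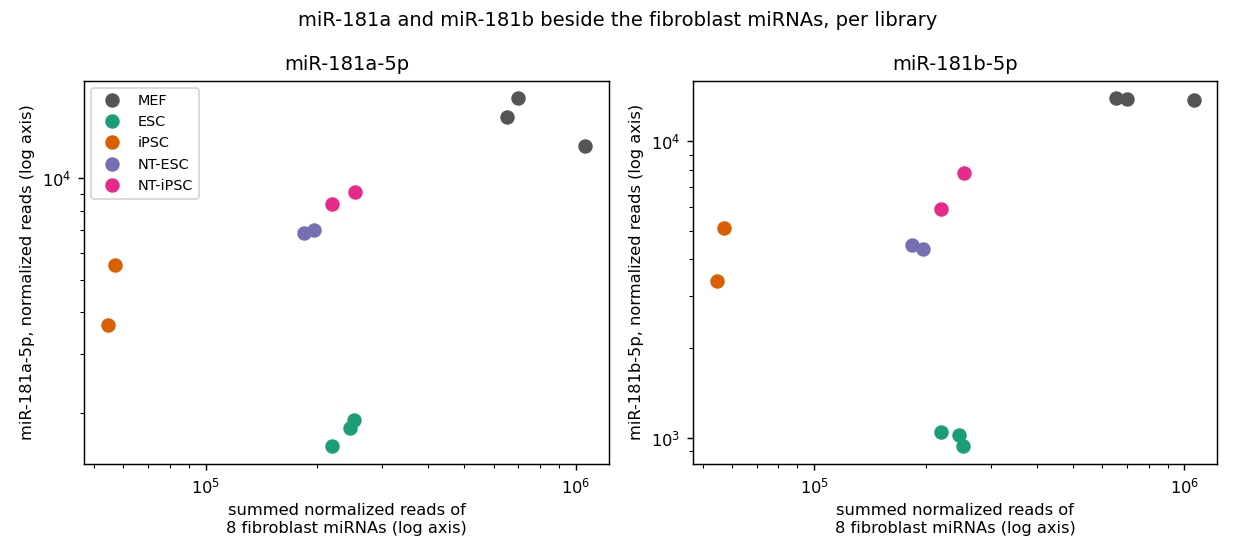
Points are the 12 libraries, with the summed normalized reads of the 8 fibroblast miRNAs on the horizontal axis and those of miR-181a-5p or miR-181b-5p on the vertical axis, both logarithmic. ESC libraries lay at the lowest miR-181 level. The fibroblast sums were 219993 to 251690 in ESC libraries and 54546 to 56903 in iPSC libraries.

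Over the 12 libraries, which fall into 5 groups and share their scaling, the deposited values of miR-181a-5p and miR-181b-5p had a Pearson r of 0.983 and those of miR-181c-5p and miR-181d-5p 0.913. Between the pairs r was -0.347 (miR-181a-5p and miR-181c-5p) and -0.068 (miR-181a-5p and miR-181d-5p). Sequence likeness and likeness in level thus did not run together, since miR-181a-5p is 1 edit from miR-181c-5p and 4 edits from miR-181b-5p. The arms of 1 hairpin had an r of 0.776 for miR-181c and 0.905 for miR-181d. miR-181a-5p had an r of 0.797 with miR-181a-1-3p and 0.682 with miR-181a-2-3p.

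Family rows were left out when the most alike miRNAs were sought. The 5 miRNAs outside the family most like miR-181a-5p over the 12 libraries were miR-132-5p (r 0.957), miR-223-3p (0.951), miR-98-3p (0.948), let-7d-5p (0.929) and miR-1a-3p (0.928). Of these, miR-223 is a miRNA of myeloid cells, miR-1a of muscle, and let-7d and miR-98 belong to the let-7 family, which accumulates as cells differentiate. The 5 most like miR-181c-5p were miR-130b-5p (0.976), miR-18b-3p (0.964), miR-92a-1-5p (0.959), miR-363-5p (0.951) and miR-669o-5p (0.950). miR-18b, miR-92a-1 and miR-363 come from the miR-17 to miR-92 cluster and its paralogue on the X chromosome, which are active in dividing cells. For miR-181d-5p, chosen after the values were seen, they were miR-669m-3p (0.985), miR-128-3p (0.985), miR-25-3p (0.983), miR-106a-3p (0.982) and miR-7a-1-3p (0.982).

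Other miRNAs of the settings in which miR-181 is known were read from the same fit. Of 15 miRNAs linked to differentiation (the let-7 family, miR-125, miR-99a, miR-100, miR-34a and miR-145), 14 were higher and 1 lower in MEFs than in ESCs, and 11 were higher, 1 lower and 3 not called in reprogrammed cells against ESCs, where 79.0% and 82.0% of all tested miRNAs passed. iPSCs alone had 2 higher, 5 lower and 8 not called against ESCs (75.8% of all tested miRNAs passed), with a median difference of -0.23. In NT-iPSCs 14 of the 15 were higher than in iPSCs and 1 did not pass, where 13.4% of all tested miRNAs were higher, with a median difference of 2.00 against 0.00 over all tested miRNAs. let-7d-5p differed by 2.93 (SE 0.15) between MEFs and ESCs and by 1.72 (SE 0.13) between reprogrammed cells and ESCs, but by 0.33 (limma adjusted p 0.0979) between iPSCs and ESCs.

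Of 10 lymphoid and blood miRNAs, 3 were higher and 7 lower in MEFs than in ESCs, where 39.1% of all tested miRNAs were higher and 39.9% lower. In reprogrammed cells against ESCs 3 were higher, 6 lower and 1 not called, where 44.0% of all tested miRNAs were higher and 38.0% lower. miR-223-3p was higher in both (6.78, SE 0.55, and 3.63, SE 0.47), and miR-142-3p, from a hairpin found across blood cells, was lower in both (-2.10, SE 0.20, and -5.46, SE 0.18). The other arm of that hairpin, miR-142-5p, was lower in MEFs (-0.85, SE 0.17) but higher in reprogrammed cells (0.87, SE 0.15, limma adjusted p 0.000177) than in ESCs. miR-150-5p, of mature lymphocytes, differed by -6.68 (SE 0.37) between MEFs and ESCs and by 0.05 (SE 0.32, limma adjusted p 0.899) between reprogrammed cells and ESCs. Of 7 blood cell markers 6 were tested. Most of these are rows of the list of 10 as well (both miR-142 arms, miR-150-5p, miR-155-5p and miR-223-3p), so the lists are not independent. miR-155-5p was higher in MEFs (2.65, SE 0.14) and lower in reprogrammed cells (-2.94, SE 0.12) than in ESCs. In MEFs 2 were higher, 3 lower and 1 not called against ESCs, and in reprogrammed cells 3 were higher, 2 lower and 1 not called, with a median difference of 0.46 against 0.24 over all tested miRNAs. Their summed normalized reads, 12130 to 13471 in MEFs, 8739 to 10589 for ESCs and 1671 to 3265 for reprogrammed cells, were thus lower in reprogrammed cells than in ESCs while the median difference was above 0.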

How the data were processed

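The authors removed adaptors and poor tags from small RNA reads, counted reads per miRNA, and deposited 1 value per miRNA and library after size-factor normalization and the variance stabilizing transformation (VST) of DESeq, on a log2 scale. The version, aligner and mismatch rule are not given in the sources used here. Whole reads were recovered by inverting the transformation: all nonzero values fell within 0.05 of a whole read (largest deviation 0.0162), and the VST recomputed from these reads differed by at most 0.00336. A VST of 0.59 stands for 0 reads, and at high reads the VST is log2 normalized reads plus 2.11.

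limma 3.58.1 (R 4.3.3) was fitted to the deposited values of all 12 libraries, with 1 mean per cell type and a trended variance, for the miRNAs that reached 10 reads in 2 or more libraries. The mean of the 3 reprogrammed types weighed them equally. Ratios within a library had 1 read added to each side and were compared by exact two-sided permutation of libraries (Python 3.11.15, numpy 2.4.6, pandas 2.3.3). The limma code was also run on simulated reads, as log2 of normalized reads plus 1 and with 1 dispersion for all miRNAs. These settings differ from the deposited values, so that run does not measure error rates of the tests above. Replicates of a type differed beyond sampling noise (chi-square per degree of freedom 47 to 357), and 3 reads were 0.348 to 0.617 CPM. Intervals cover counting error only. Named miRNAs were all family rows and the 5 rows outside the family most like miR-181a-5p and like miR-181c-5p. List members with large differences could be named, and the other list members named and the rows most like miR-181d-5p were chosen after their values were seen. The members and lists were chosen with earlier results of these data known.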

Additional observations from a re-analysis of the deposited data

Results flagged for a closer look

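The difference from ESCs was not the same in all reprogrammed types for 7 pairings of a member and 2 types, by the limma test of the difference itself. Over all tested miRNAs 25.7% passed between NT-ESCs and iPSCs, 26.5% between NT-iPSCs and iPSCs and 12.8% between NT-iPSCs and NT-ESCs. With the 3 other scalings only the pairings of miR-181a-2-3p kept their call throughout, and several calls hung on 1 library, as given above. miR-181c-5p was 0.64 higher (log2 scale) in NT-ESCs than in iPSCs (limma adjusted p 0.0263), in 2 of 2 libraries. Between these types 68.9% of all tested miRNAs did not overlap. The call of miR-181c-5p was lost with total miRNA reads as library size (0.28) and with only the compared types in the fit (limma adjusted p 0.12). miR-181a-2-3p was 1.28 higher in NT-ESCs than in iPSCs (limma adjusted p 0.00117) and 1.70 higher in NT-iPSCs than in iPSCs (limma adjusted p 0.000136), in 2 of 2 libraries each. Between NT-iPSCs and iPSCs 63.1% of all tested miRNAs did not overlap. miR-181a-5p was 0.96 higher in NT-iPSCs than in iPSCs (limma adjusted p 0.00651), miR-181b-5p 0.71 higher (limma adjusted p 0.0219) and miR-181a-1-3p 1.07 higher (limma adjusted p 0.0354). miR-181c-5p differed by -0.63 between NT-iPSCs and NT-ESCs (limma adjusted p 0.0488). No cell type had the 4 libraries that a check for outlying samples needs.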

How the results depend on the processing

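Of 51 called differences of members, 39 kept their call and none changed sign under the alternatives run, which were 3 other scalings, log2 of normalized reads plus 1, voom on the recovered reads, no read filter, a minimum of 100 reads throughout 1 cell type, only the compared types in the fit, and each library left out. miR-181b-1-3p did not reach the minimum of 100 reads, so its calls were not checked under that setting. With upper quartile scaling miR-181d-5p lost its call between MEFs and ESCs (-0.35). With TMM-type scaling 2 members were lower in reprogrammed cells than in ESCs, 1 was lower in NT-ESCs than in ESCs, and 0 were lower in NT-iPSCs than in NT-ESCs. With total miRNA reads as library size 1 member was lower in iPSCs than in ESCs, 1 was higher in NT-ESCs than in iPSCs, 1 was higher and 2 were lower in NT-iPSCs than in iPSCs, and 2 were lower in NT-iPSCs than in NT-ESCs. With voom 4 members were higher in NT-ESCs than in iPSCs and 1 in NT-iPSCs than in NT-ESCs, as with the 100-read filter (1). With only the compared types in the fit, and so fewer libraries, 1 member was higher in NT-ESCs than in iPSCs, 1 in NT-iPSCs than in iPSCs, 1 was lower in NT-ESCs than in ESCs and 0 were lower in NT-iPSCs than in NT-ESCs, which was also 0 with no filter. With 1 library left out, the members lower in iPSCs than in ESCs numbered 1 to 2, those higher in NT-ESCs than in iPSCs 1 to 3, those higher in NT-iPSCs than in iPSCs 1 to 4, and those lower in NT-iPSCs than in NT-ESCs 0. No ratio (0) passed with 1 library left out in either comparison, where fewer libraries allow only larger permutation p-values, and 0 passed between MEFs and pluripotent cells with 5 reads added. Signs turned only for differences that had not passed. miR-181a-1-3p between iPSCs and ESCs was 0.11 with upper quartile scaling, 0.36 with total reads and -0.36 to 0.25 with 1 library left out. Between NT-ESCs and ESCs miR-181a-2-3p was -0.10 with TMM-type scaling and -0.082 to 0.10 with 1 library left out, and miR-181a-1-3p -0.077 to 0.88. Between NT-ESCs and iPSCs total reads gave -0.27 for miR-181b-5p and -0.16 for miR-181c-3p, and leaving out 1 library gave -0.21 to 0.38 for miR-181b-5p, -0.97 to 0.034 for miR-181b-1-3p and -0.022 to 0.93 for miR-181a-1-3p. Between NT-iPSCs and iPSCs miR-181c-5p was -0.020 with TMM-type scaling, -0.53 with total reads and -0.26 to 0.30 with 1 library left out, and total reads gave -0.25 for miR-181d-5p (-0.043 to 0.64 with 1 library left out) and -0.044 for miR-181d-3p. The 5p to 3p ratio of miR-181b between ESCs and reprogrammed cells was 0.077 with 0.5 reads added and -0.43 to 0.045 with 1 library left out, that of miR-181d between MEFs and pluripotent cells was -0.40 with 5 reads added, and that of miR-181c was -0.013 to 0.18 with 1 library left out. The cause of these changes was not tested. No paired analysis was possible because the cell types share no replicate numbers. Few reads limited the 3p arms of miR-181b and miR-181d.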
